A study of Mus musculus with 10 samples.

Results

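The epicardium, the mesothelial sheet that covers the heart, held 53848 accessible regions that were called as ATAC-seq peaks in every library at both E11.5 and E17.5. Of these, 773 (1.44%) were called in epicardium-derived cells (EPDCs) sorted from E12.5 hearts and were called in neither list from E13.5 EPDCs. These 773 regions are the members described here. They were selected on the measured peak calls: the intervals of all 9 peak lists on chromosomes 1 to 19 were pooled and overlapping intervals merged into 154886 union regions, and a library was taken to call a region when at least 1 bp of an interval lay in it. Presence in the epicardium, presence at E12.5 and absence at E13.5 are therefore the definition of the members and not a result. The 2 E13.5 lists also differed from each other. Of the regions called at E12.5, 1797 were called in E13.5 sample 2 and not sample 1, and 86 the reverse. Of those not called at E12.5, the counts were 1869 and 89.

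Epicardial cells are polarised epithelial cells that express Wt1, and during heart development some of them lose their junctions, enter the myocardium by epithelial-to-mesenchymal transition (EMT) and give rise to fibroblasts and mural cells. Accessible regions away from transcription starts often act as cis-regulatory elements (CREs), and the factors that bind them are read from short sequence motifs. AP-1 is a dimer of FOS and JUN family proteins, and TEAD proteins are the DNA-binding partners of the Hippo pathway effectors YAP and TAZ.

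All samples were labelled C57BL/6J, and the embryos carried Rosa26tdTomato and Wt1CreERT2/+, a tamoxifen-inducible Cre under control of Wt1, and received tamoxifen at E9.5, so that cells expressing Wt1 at that time, and their descendants, were marked by tdTomato. Epicardial cells were sorted as CD31-tdTomato+PDPN+ from E11.5 hearts (3 samples, 6 pooled hearts each) and from E17.5 hearts (3 samples, 4 pooled hearts each). EPDCs were sorted as CD31-tdTomato+PDPN- from E12.5 hearts (1 sample, number of hearts not given in the sources used here) and E13.5 hearts (2 biological samples, 4 to 13 pooled hearts each by the labels and 9 to 13 by the study's methods, sample 2 being a single list made from 2 technical replicates). The E12.5 EPDCs are 1 library, so the stage and the library cannot be told apart, and PDPN, which set the sort, separates the epicardial from the EPDC groups by construction. The study itself let E12.5 and E13.5 EPDCs together stand for E13.5, describing the 2 stages as strongly concordant.

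The most frequent background, solved from the fold enrichment and p-value of each summit, lay between 2.07 and 4.26 fragments per position in 8 libraries and was 10.9 in E13.5 sample 2, and the lists held 73606 to 106836 intervals. At that background, 13 fragments sufficed for a call in the E12.5 library (3.10 times the background), 13 in E13.5 sample 1 (3.05 times) and 24 in E13.5 sample 2 (2.202 times). Promoters of 30 epicardial and mesothelial genes were called in 28 or 29 cases in the epicardial libraries and in 27, 24 and 27 cases in the E12.5 list and the 2 E13.5 lists. Their mean rank percentile, the place of the peak among all peaks of its list ordered by −log10 p and 0 where none was called, was 73.6 to 79.0 in the epicardium, 63.0 at E12.5 and 58.5 and 63.4 at E13.5. The E12.5 percentile was above both E13.5 values for 11 of these 30 promoters and below both for 9. For fibroblast and matrix promoters the counts were 6 and 17 of 27 and for mural cell promoters 2 and 9 of 14, and for endothelial, cardiomyocyte and blood cell promoters they were 0 and 5, 0 and 5, and 0 and 4. Epicardial promoters were called in PDPN- cells of both stages, and their part in the choice of the members was not tested. Promoters of cardiomyocyte genes were called for 7 to 14 of 16, of endothelial genes for 8 or 9 of 14 and of blood cell genes for 4 to 6 of 14 across the 9 lists.

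A set of 11 members is printed to show the sequence behind the motif counts below and members linked, in some cases over more than 50 kb, to genes of the epicardium, of junctions, of EMT and of signalling. Each is the forward strand of GRCm38 (mm10), 201 bp centred on the strongest epicardial summit, with the AP-1 pattern TGANTCA and the TEAD pattern GGAATG, read on both strands, in capitals.
Pdpn, chr4:143295304-143295504: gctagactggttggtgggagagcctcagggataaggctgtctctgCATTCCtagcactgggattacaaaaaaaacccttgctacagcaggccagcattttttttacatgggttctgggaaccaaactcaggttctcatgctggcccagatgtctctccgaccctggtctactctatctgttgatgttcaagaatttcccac
Muc16, chr9:18674746-18674946: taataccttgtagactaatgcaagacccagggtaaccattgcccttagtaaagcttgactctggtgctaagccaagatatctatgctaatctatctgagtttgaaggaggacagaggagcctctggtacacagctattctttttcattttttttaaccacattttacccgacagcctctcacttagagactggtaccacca
Aldh1a2, chr9:71342238-71342438: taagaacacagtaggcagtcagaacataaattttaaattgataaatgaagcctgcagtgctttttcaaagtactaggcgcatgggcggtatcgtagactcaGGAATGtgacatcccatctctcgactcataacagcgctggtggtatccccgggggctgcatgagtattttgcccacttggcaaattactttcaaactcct
Tjp1, chr7:65439647-65439847: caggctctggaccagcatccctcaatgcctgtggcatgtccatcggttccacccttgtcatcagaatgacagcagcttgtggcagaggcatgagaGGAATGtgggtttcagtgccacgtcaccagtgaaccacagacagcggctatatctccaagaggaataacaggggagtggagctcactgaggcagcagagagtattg
Sox9, chr11:113005982-113006182: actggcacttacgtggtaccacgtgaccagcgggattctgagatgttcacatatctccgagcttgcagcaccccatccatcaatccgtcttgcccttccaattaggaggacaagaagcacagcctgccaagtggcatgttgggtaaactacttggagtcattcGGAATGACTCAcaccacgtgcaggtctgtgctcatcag
Tgfb2, chr1:186454790-186454990: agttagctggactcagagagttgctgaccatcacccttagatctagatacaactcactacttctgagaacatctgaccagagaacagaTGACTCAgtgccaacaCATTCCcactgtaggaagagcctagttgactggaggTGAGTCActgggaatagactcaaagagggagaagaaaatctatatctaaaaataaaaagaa
Wwc1, chr11:36013311-36013511: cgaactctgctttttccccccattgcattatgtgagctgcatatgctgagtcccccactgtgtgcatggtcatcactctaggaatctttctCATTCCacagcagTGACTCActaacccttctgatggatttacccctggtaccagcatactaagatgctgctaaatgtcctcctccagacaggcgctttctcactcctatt
Adamts5, chr16:86138269-86138469: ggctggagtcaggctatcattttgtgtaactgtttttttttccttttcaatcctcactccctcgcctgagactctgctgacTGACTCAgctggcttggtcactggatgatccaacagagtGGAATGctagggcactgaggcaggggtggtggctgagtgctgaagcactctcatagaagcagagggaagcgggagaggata
C77080, chr4:129232143-129232343: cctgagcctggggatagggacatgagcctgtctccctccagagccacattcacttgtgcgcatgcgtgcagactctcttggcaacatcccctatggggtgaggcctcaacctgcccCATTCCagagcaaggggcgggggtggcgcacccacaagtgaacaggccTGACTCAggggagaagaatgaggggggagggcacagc
Tcf12, chr9:71915962-71916162: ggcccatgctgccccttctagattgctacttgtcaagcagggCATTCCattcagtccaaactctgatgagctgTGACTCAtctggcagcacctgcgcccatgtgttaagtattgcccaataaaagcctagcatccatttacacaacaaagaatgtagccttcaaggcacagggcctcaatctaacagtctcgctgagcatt
Wnt5a, chr14:28628956-28629156: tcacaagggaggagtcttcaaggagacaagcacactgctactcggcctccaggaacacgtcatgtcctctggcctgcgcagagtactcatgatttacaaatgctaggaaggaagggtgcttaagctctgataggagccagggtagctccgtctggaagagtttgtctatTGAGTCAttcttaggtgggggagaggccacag
The Sox9, Tgfb2, Wwc1, Adamts5, C77080 and Tcf12 windows hold both motifs. In the Sox9 window they share bases, since the end of GGAATG and the start of the AP-1 pattern overlap. The Tgfb2 window holds 2 AP-1 matches and 1 TEAD match between them. The Muc16 window holds neither, and its 1 TEAD match lies outside the printed 201 bp. The printed windows are chosen examples, and their motif content does not represent the members. Within 150 bp of the summit, a wider span than printed, both motifs were present in only 84 of 773 members (10.9%). At least 1 of the motifs was present in 498 members (64.4%).

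The members and the regions that were accessible in every library held AP-1 and TEAD matches in different shares. Within 150 bp of the reference summit (the epicardial summit of highest score), an AP-1 match was present in 280 of 773 members (36.2%), against 17.6% of the 44013 regions called by all 9 lists and 19.9% of all 53848 regions of the same window length. A TEAD match was present in 302 members (39.1%), against 23.0% and 24.5%. Both were present in 84 members (10.9%), against 4.70% of the regions in all 9 lists and 5.39% of all 53848 regions. At least 1 of them was present in 498 members (64.4%), against 35.9% and 39.0%. Regions of the epicardium that no EPDC list called had a similar AP-1 share (37.8% of 3427) and a TEAD share of 32.9%. Of these regions, 11.2% held both motifs and 59.5% at least 1, so such shares were not particular to the members. Regions called in both E13.5 lists and not at E12.5, the reverse of the members in EPDCs, had shares of 21.3% and 24.8% (n = 1794), and those called in E13.5 sample 2 alone had 25.9% and 27.5% (n = 1869).

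Away from promoters the shares lay closer together. Among the 592 members farther than 3 kb from any start, 36.5% held AP-1 and 39.7% held TEAD, against 23.5% and 29.1% of the 24057 such regions called by all 9 lists. The 2719 such regions called by no EPDC list stood at 37.7% and 33.7%. This comparison was added after the data were seen.

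Over all positions, the MAF pattern TGCTGA, which can overlap the AP-1 pattern, was found in 36.4% of members and 25.9% of regions in all 9 lists, and the GATA pattern AGATAA in 25.4% and 16.4%. The WT1 core GTGGGAG stood at 16.2% and 12.46%, the nuclear receptor pattern AGGTCA at 21.7% and 15.8%, and the TBX pattern AGGTGTGA at 2.07% and 0.852%. Motifs of promoters and insulators had lower shares in the members: the SP/KLF pattern GGGCGG (8.80% against 32.2%), the ETS pattern CCGGAAG (0.906% against 7.06%) and the CTCF core AGGGGGCGC (0.388% against 1.73%). Over all 53848 regions the shares were 27.0% for MAF, 18.01% for GATA, 12.47% for WT1, 16.5% for nuclear receptors, 1.04% for TBX, 28.1% for SP/KLF, 6.06% for ETS and 1.56% for CTCF. Regions called by no EPDC list had shares of 32.7% for MAF, 27.7% for GATA, 13.8% for WT1 and 19.9% for nuclear receptors. Their shares were 2.13% for TBX, 8.78% for SP/KLF, 1.20% for ETS and 0.175% for CTCF. Except for WT1, these values lay nearer to the members than to the regions in all 9 lists, so they were not particular to the members. Away from promoters the shares of members and of regions in all 9 lists were 35.8% and 30.8% for MAF, 26.9% and 23.0% for GATA, 15.2% and 12.87% for WT1, 22.5% and 18.46% for nuclear receptors and 7.43% and 13.51% for SP/KLF. The MAF and GATA shares lay closer together there than over all positions. Other motifs had lower shares in the members there: the TCF21-type E-box CAGCTG stood at 23.1% against 29.4%, the TWIST-type E-box CAGATG at 23.6% against 25.8%, the NFI pattern TTGGCA at 20.4% against 21.9% and the RUNX pattern TGTGGT at 17.7% against 19.4%. Over all positions the TCF21-type E-box stood at 23.8% against 25.7%, while the other 3 had the higher shares in the members (23.3% against 20.5%, 20.3% against 17.7% and 18.4% against 16.3%). Over all 53848 regions these 4 stood at 25.15%, 21.3%, 18.9% and 17.3%. These are shares of pattern matches on both strands, given as descriptions.

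**Figure D1:**
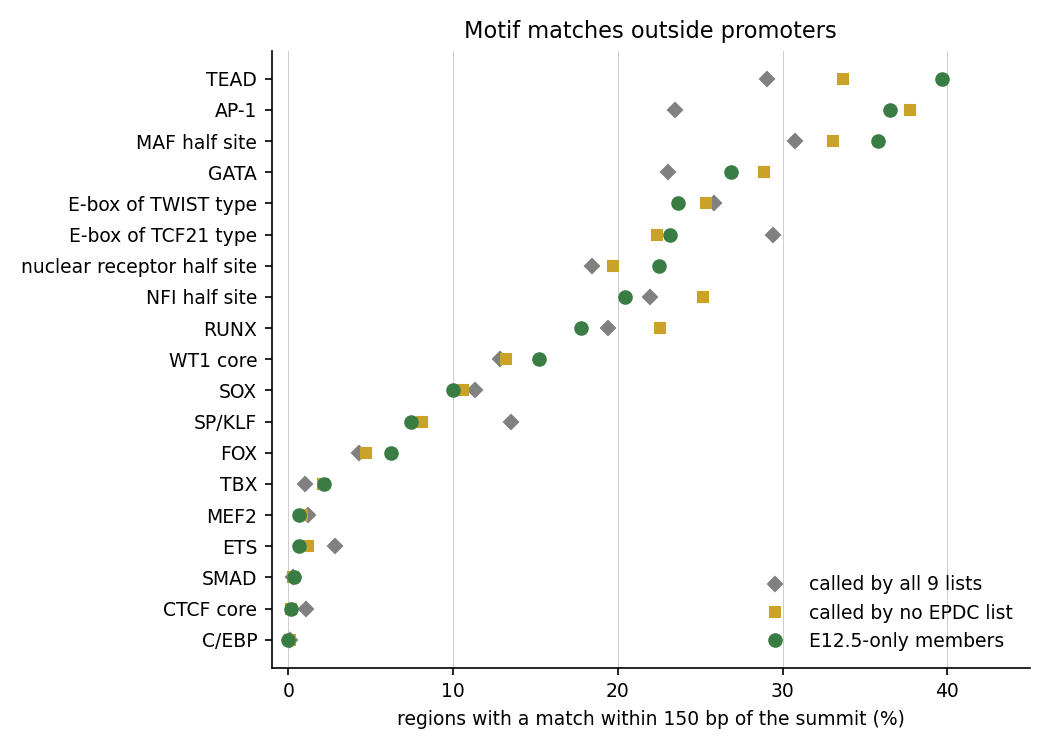
Share of regions outside the 3 kb promoter window with a match to each of 19 motifs within 150 bp of the summit, in percent, for the members (circles), regions called by no EPDC list (squares) and regions called by all 9 lists (diamonds). TEAD and AP-1 stand at 39.7% and 36.5% of members and at 29.1% and 23.5% of the regions called by all 9 lists. In regions called by no EPDC list they stand at 33.7% and 37.7%.

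The members were weak in the E12.5 library and of middle strength in the epicardium. Strength is given as the rank percentile of a region's strongest peak within its own list. At E12.5 the median member stood at 17.52, with quartiles of 6.76 and 29.9 and a highest value of 76.1, against a median of 69.2 for regions called by all 9 lists. In the 6 epicardial libraries the members' medians lay between 45.5 and 62.4, against 67.0 to 78.2. The E12.5 percentile was below that of every epicardial library for 606 members (78.4%). At the summit, the median member had 22 fragments at E12.5, or 5.26 times the genome background, and 12.9 to 18.8 times the background in the epicardial libraries. All these values took part in the choice of members and are descriptions.

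**Figure D2:**
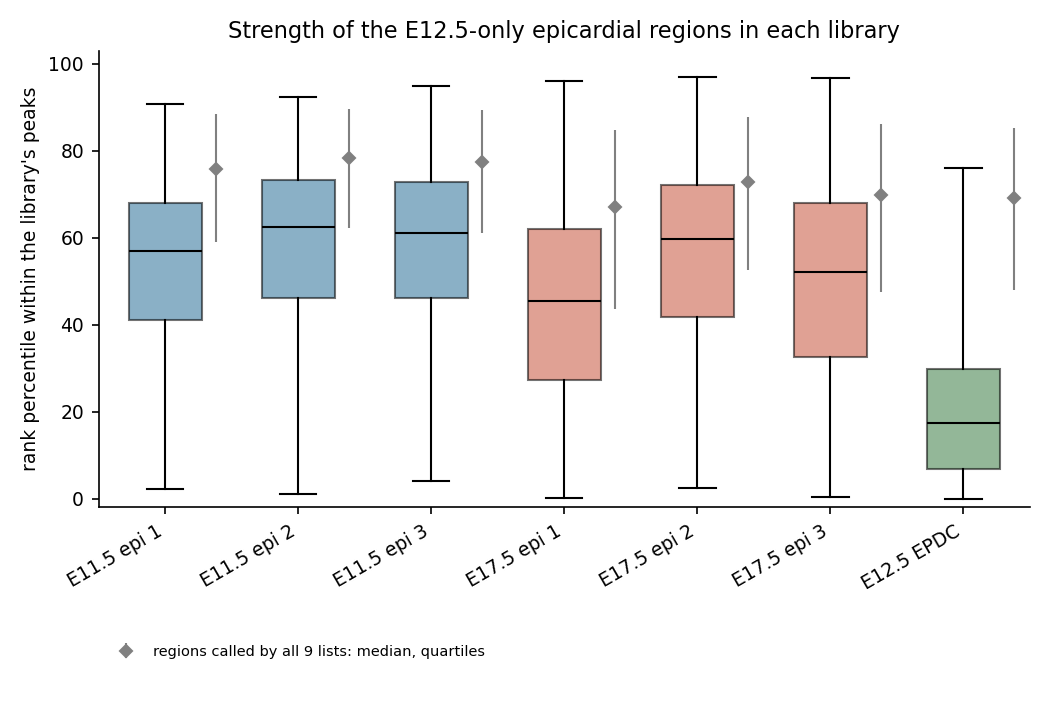
Rank percentile of the 773 members in the 6 epicardial libraries and the E12.5 EPDC library. Boxes give quartiles and median, whiskers the lowest and highest member, and grey diamonds with bars the median and quartiles of regions called by all 9 lists. The median member stands at 17.52 in the E12.5 library and at 45.5 to 62.4 in the epicardial libraries.

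How far members lay from the edge of the definition can be read from their E12.5 values. The fold over background at E12.5 exceeded 2 times the lowest fold called in E13.5 sample 1 in 283 members (36.6%) and in sample 2 in 534 members (69.1%). Just inside the definition were regions upstream of Npr3, Pkia and Col5a1, whose −log10 q at E12.5 was 2.01, 2.02 and 2.15, where the peak caller's limit is 2. Just outside were regions linked to Tmem63b, Herpud1 and Unc5b, which 1 E13.5 list called with a −log10 q of 2.055, 2.057 and 2.093. An interval of an E13.5 list lay within 1 kb of 119 members (15.4%), and the median distance to one was 3.11 kb. If absence was required of E13.5 sample 1 alone, 2570 regions qualified, and of sample 2 alone, 859. Sample 2 was also the library with the highest background, and the part of depth in the number was not tested.

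Members lay mostly in introns and between genes. Within 3 kb of a start were 181 (23.4%), in introns 326 (42.2%), between genes 234 (30.3%) and in exons 32 (4.14%). Of the regions called by all 9 lists, 45.3% were promoter-proximal and 27.2% intronic, and of those called by no EPDC list 20.7% and 43.97%. The median member was 654 bp wide and 23.8 kb from the nearest protein-coding start, against 1046 bp and 12.4 kb for regions in all 9 lists. Its GC content was 49.5%, against 53.5%. Regions called by no EPDC list were near the members, with medians of 629 bp, 26.45 kb and 48.8% GC. The members were spread over all 19 autosomes, with between 1.02% and 1.84% of each chromosome's epicardial regions.

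Between E11.5 and E17.5 the members divided in both directions at rates close to those of all regions. The measure was the −log10 p of the strongest summit, scaled so that each library's scores had the same sum and put on a log2(scaled score + 1) scale. It was tested by limma over all 53848 regions with Benjamini-Hochberg adjustment. At E17.5, 196 members were higher (25.4%), where 23.8% of all regions were, and 231 were lower (29.9%), where 25.8% of all regions were. The median member differed by -0.08 on the log2 scale and the median of all regions by 0.01. The regions called by no EPDC list stood elsewhere: 42.8% were higher, 9.92% lower, and their median was 0.38. The 2 stages did not overlap in 208 members with every E17.5 library above (26.9%, against 26.7% of all regions) and in 246 members with every E17.5 library below (31.8%, against 28.5%). The division of the called members moved with the scale: 45.9% were higher at E17.5 on the scaled score, 63.7% with fragments over genome background and 33.1% with rank percentiles, while the shares of all called regions moved likewise from 48.0% to 69.8% and 26.0%. Of the members named below, the calls of Neu2, Acbd7, Egfl7, Lama5, 9330182L06Rik, Podxl, Htra1, Tcf12, Wwc1, Sox9, Sh3bp5 and Tmem151a were lost with fold enrichment in place of the score, and those of Neu2, 9330182L06Rik, Tjp1 (nearer the start), Tcf12, Sh3bp5, Shld2 and Tmem151a with rank percentiles. Those of Sox9, Tmem151a and the same Tjp1 member were lost with the mean of a region's summits, and those of Neu2, Shld2, Tmem151a and that Tjp1 member when regions called by any of the 6 libraries were tested.

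**Figure D3:**
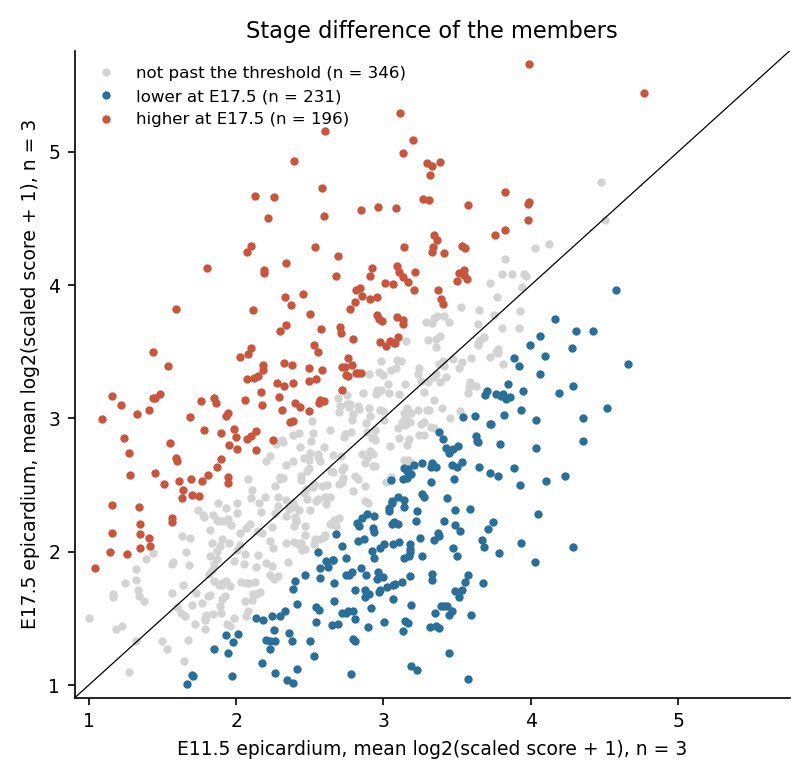
Mean log2(scaled score + 1) of each member in E11.5 epicardium (horizontal axis, 3 libraries) and E17.5 epicardium (vertical axis, 3 libraries). Points above the line of equality are stronger at E17.5; 196 members passed the limma threshold above it and 231 below it.

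Among the members that were higher and lower at E17.5, the shares with AP-1, TEAD, the MAF pattern and SP/KLF stood in the same order as over all regions. AP-1 was present in 43.4% of the 196 higher members and 28.6% of the 231 lower members, beside 27.6% and 16.8% of all higher and lower regions. SP/KLF was present in 12.8% and 3.90%, beside 35.2% and 15.7%. The MAF pattern went the other way, at 32.1% and 41.6%, beside 26.2% and 31.2%, and TEAD stood at 37.8% and 42.4%, beside 22.8% and 29.1%. The order of the 2 directions was the same for these 4 motifs with fold enrichment, quantile normalisation, rank percentiles and fragments over background.

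The largest increases from E11.5 to E17.5 among members with separate stages were at 5 regions, linked to Ugdh, Atp23, C77080, Rab6b and Klf4. The region in an exon of Smim14, 19.02 kb from the start of Ugdh, which makes the UDP-glucuronate used for glycosaminoglycans (chr5:65454610-65455461), had percentiles of 59.4, 60.1 and 47.6 at E11.5, 90.9, 93.8 and 92.6 at E17.5 and 7.74 at E12.5. It differed by 2.55 ± 0.17 (log2, SE) with an adjusted p of 5.22e-19. The intronic region of C77080 shown above stood at 36.1, 57.0 and 57.2, then at 90.0, 91.6 and 89.5, and at 12.8 in E12.5 EPDCs (2.54 ± 0.18). All E17.5 values of both regions lay above all E11.5 values. The remaining 3 were 22.9 kb from Atp23 (2.54 ± 0.20), in an intron of the prostaglandin transporter gene Slco2a1, with Rab6b as the nearest start (2.41 ± 0.19) and 343 kb from Klf4, which encodes a zinc finger factor (2.32 ± 0.22). Klf4 and Slco2a1 regions were near the bottom of the E12.5 list, at a percentile of 0.855 each.

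The largest decreases were at a region in an exon of Pak2 and at regions of Magi2, Pde4b, Tspan9 and E330034G19Rik. The Pak2 region (chr16:32016905-32017814), in the gene of a p21-activated kinase and 14.0 kb from the start of Senp5, stood at 79.2, 76.0 and 74.2 at E11.5, at 3.73, 14.4 and 1.36 at E17.5 and at 31.8 in E12.5 EPDCs, and fell by 2.53 ± 0.24 with an adjusted p of 9.84e-14. The intronic region of Magi2, a junctional scaffold (chr5:20562970-20563668), stood at 67.5, 74.7 and 80.3, then at 9.70, 14.4 and 9.22, and at 29.9 at E12.5. Its difference was -2.21 ± 0.24. The E12.5 value of both regions lay between the stages. The differences of the regions of E330034G19Rik, Pde4b, which encodes a cyclic AMP phosphodiesterase, and Tspan9 were -2.25 ± 0.21, -2.12 ± 0.24 and -2.10 ± 0.21.

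The 10 members with the highest E12.5 values had percentiles of 53.8 to 76.1. The strongest was a region of Baz2a (chr10:128094661-128094947), the gene of a chromatin remodelling subunit, at 76.1 with 180 fragments. It had percentiles of 63.2, 75.9 and 77.4 at E11.5, followed by 78.0, 74.7 and 74.0 at E17.5, so the E12.5 value lay within the epicardial range. Regions of Ddx25 (65.1), Acbd7 (65.0) and Rps6kl1 (57.0), of Map4k3 (56.9), Xrcc3 (56.2) and Pak1 (55.3) followed, and a region 237 kb from Adamts5, the gene of an aggrecan-cleaving protease, had 54.8.

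The Mef2c and Npnt regions among these 10 shared low E17.5 values. The region 259 kb from Mef2c, a MADS-box transcription factor of heart and muscle (chr13:83911532-83912503), stood at 68.6, 74.6 and 74.9 at E11.5, at 62.1 in E12.5 EPDCs and at 20.8 or less in the 3 E17.5 libraries. The stages differed by -1.92 ± 0.23 with an adjusted p of 4.42e-10. The intronic region of Npnt, which encodes the matrix protein nephronectin (chr3:132909709-132910344), stood at 44.5, 74.6 and 59.6, at 53.8 and at 16.4, 22.9 and 23.1 in the same order. It differed by -1.24 ± 0.25 (adjusted p = 3.01e-05). In both regions the E12.5 value lay above every E17.5 value, but both were named for a high E12.5 value, so this is a description only. Over all members, the E12.5 percentile was below that of every epicardial library in 78.4%.

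Genes on 13 lists of the epicardium, its derivatives and its signals were read through their nearest-start or host members. Such a link joined 810 of 20698 protein-coding genes (3.91%) to a member. It joined 6 of 30 epicardial and mesothelial genes, 7 of 38 epithelial junction genes, 2 of 12 EMT factors, 3 of 27 fibroblast and matrix genes, none of 14 mural cell genes, 2 of 14 endothelial genes, none of 16 cardiomyocyte genes and 1 of 13 blood cell genes. At least 1 region called by all 9 lists was linked to 74.1% of all protein-coding genes and, for example, to 27 of the 30 epicardial and 37 of the 38 junction genes. Regions called by no EPDC list reached 13.9% of all protein-coding genes, 11 of the 30 epicardial and 14 of the 38 junction genes. With links limited to 50 kb or a host gene, 651 genes had a member (3.15%), the epicardial count was 3, the junction count 7, the EMT count 0 and the fibroblast count 2.

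Muc16 was linked to a single epicardial region, which was a member. It encodes the mesothelial surface mucin known as CA125, and its member (chr9:18674227-18675328), 316 bp upstream of the start, was the only region linked to it that all 6 epicardial libraries called. It stood at 80.5, 84.4 and 75.4 at E11.5, at 75.7, 82.7 and 82.4 at E17.5 and at 14.0 with 19 fragments at E12.5, and it was the single epicardial promoter of the 30 called at E12.5 and in neither E13.5 list. The epicardial stages overlapped (adjusted p = 0.181). The nearest interval of an E13.5 list was 200.1 kb away.

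The other epicardial genes kept their promoters in the EPDC lists and had a member elsewhere. The promoters of Pdpn, Podxl, Aldh1a2, Maf and Gata6 stood at percentiles of 72.9 to 89.9 in the 2 E13.5 lists. The intronic member of Podxl, which encodes the apical sialomucin podocalyxin (chr6:31559846-31560533), stood at 53.7, 58.1 and 66.7 at E11.5, at 7.79, 41.4 and 12.6 at E17.5 and at 24.3 at E12.5, and fell by 1.21 ± 0.25 on the log2 scale between the epicardial stages (adjusted p = 3.87e-05). The member 127 kb from Aldh1a2, the enzyme that makes retinoic acid, stood at 55.3, 61.0 and 70.8, then at 33.9, 60.9 and 61.2, and at 42.0 at E12.5. The intronic member of Pdpn, the sorting marker itself, was weak throughout, at 12.1 to 47.6 in the epicardium and 5.34 at E12.5. The members linked to the transcription factor genes Maf and Gata6 lay 288 kb and 184 kb from their starts and stood at 18.7 and 3.40 at E12.5. The stages of these last 4 members overlapped, and none passed the test.

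The junction genes carried 9 members. Tjp1, which encodes the tight junction scaffold ZO-1, had 2 intronic members besides 6 regions called by all 9 lists. The one shown above, 68.5 kb from the nearest start, stood at 73.6, 75.1 and 78.4 at E11.5, at 34.7, 51.4 and 31.5 at E17.5 and at 18.7 at E12.5, and fell by 1.37 ± 0.22 (adjusted p = 4.58e-07). The other Tjp1 member was higher at E17.5 by 0.70 ± 0.25 (adjusted p = 0.0169), but its stages overlapped and it did not pass without E17.5 replicate 2 (0.47, adjusted p = 0.152), without E17.5 replicate 3 (0.64, adjusted p = 0.0529) or without E11.5 replicate 2 (0.57, adjusted p = 0.102).

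Pard6b, a component of the apical polarity complex, also had 2 intronic members. One (chr2:168091302-168091805) stood at 14.9, 11.8 and 4.00 at E11.5, followed by 52.8, 66.1 and 63.5 at E17.5, with 10.5 at E12.5, and differed by 1.90 ± 0.24 (adjusted p = 9.60e-10). The other overlapped between stages. The member of the laminin gene Lama5, which encodes a basement membrane subunit, was higher at E17.5 by 0.85 ± 0.24. The members of Cgnl1, Cdh2, the gene of N-cadherin, and the desmosomal gene Dsg2 did not pass the test. Their E12.5 percentiles were 46.6, 33.7 and 31.0.

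**Figure D4:**
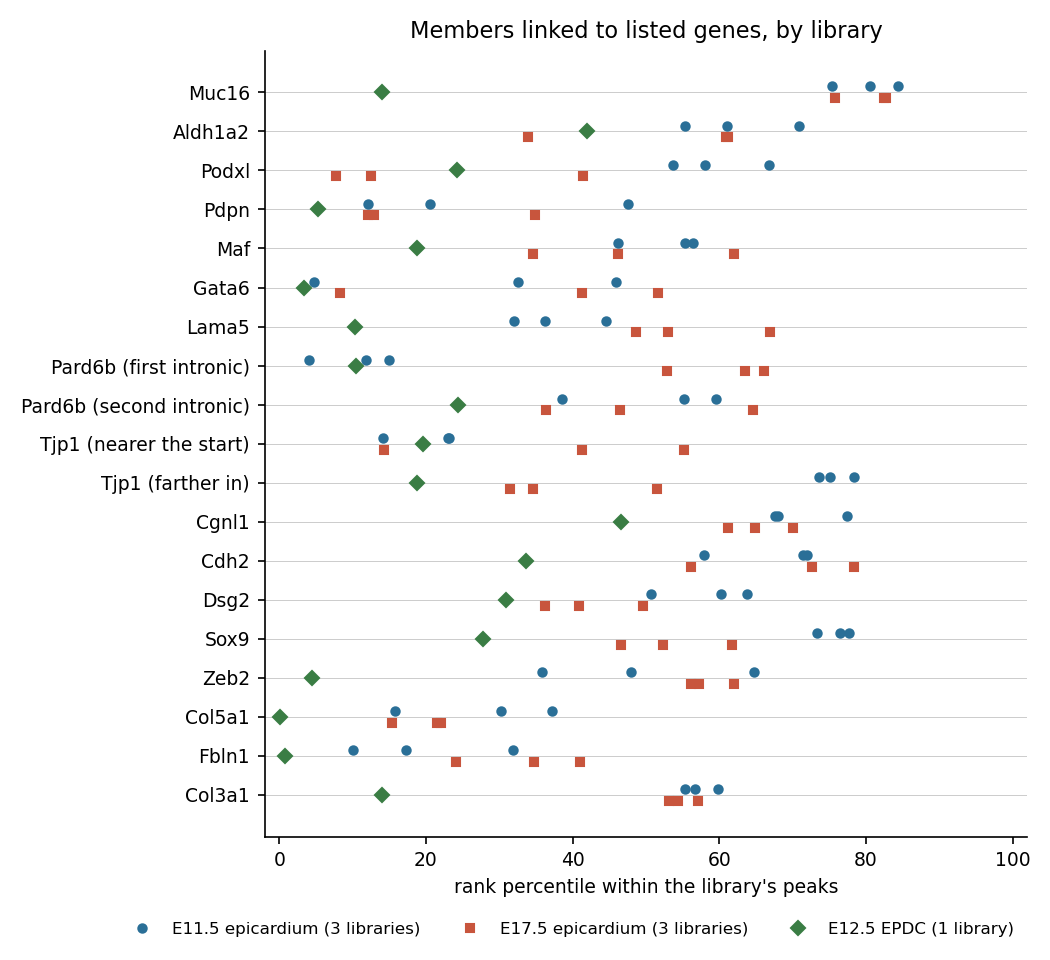
Rank percentile of 19 members linked to epicardial, junction, EMT and fibroblast genes in each library: circles E11.5 epicardium, squares E17.5 epicardium, diamonds E12.5 EPDCs. For Muc16 the 6 epicardial values lie between 75.4 and 84.4 and the E12.5 value at 14.0.

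Of the EMT factors, Sox9 and Zeb2 had a member far from their starts. The Sox9 region shown above, 224 kb away, stood at 77.6, 76.5 and 73.4 at E11.5, at 52.3, 61.7 and 46.6 at E17.5 and at 27.8 at E12.5, and fell by 0.86 ± 0.21 (adjusted p = 0.000438). The Zeb2 region, 404 kb from the start of this repressor of epithelial genes, stood at 35.8 to 64.7 in the epicardium and 4.51 at E12.5 and did not pass. The fibroblast genes Col3a1, Col5a1 and Fbln1 had 1 member each, with E12.5 percentiles of 14.0, 0.0972 and 0.855, and none passed.

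Pathway genes were linked to members in small numbers. The retinoic acid list had 2 of 19, the TGF-beta and BMP list 4 of 40, the FGF and PDGF list 4 of 23, the Wnt list 5 of 40 and the Hippo list 2 of 26, beside 3.91% of all genes. With links limited to 50 kb or a host gene these counts were 1, 1, 2, 3 and 2, beside 3.15%. Regions called by no EPDC list, linked at any distance, reached 6, 13, 8, 17 and 9 genes of these lists, beside 13.9%. The strongest epicardial member of each, after Aldh1a2, was as follows. The Tgfb2 region, 251 kb from the start of the gene of a ligand known to promote epicardial EMT, stood at 45.3 to 72.2 in the epicardium and 11.6 at E12.5. The Wnt5a region, 117.65 kb from the start of the gene of a non-canonical Wnt ligand, stood at 81.1 to 85.7 in the 6 epicardial libraries and at 39.0 at E12.5, a narrow epicardial range in which the stages did not pass the test. The Wwc1 region, 32.9 kb from the start of the gene of the Hippo regulator KIBRA and inside Tenm2, stood at 86.2, 92.4 and 93.8 at E11.5, at 56.2, 77.7 and 72.0 at E17.5 and at 50.8 at E12.5, and fell by 1.25 ± 0.18 (adjusted p = 2.55e-08). The FGF member (chr7:130982308-130983149) lay in Htra1 and counted through an annotated span of Fgfr2 that reaches over Htra1. It was higher at E17.5 by 0.76 ± 0.17.

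Only 24 members lay within 500 bp of a protein-coding start, and several of these genes kept another called start. The start of S100a14, the gene of an epithelial calcium-binding protein (chr3:90526310-90527096), stood at 58.2, 52.3 and 52.0 at E11.5, at 79.1, 86.4 and 83.6 at E17.5 and at 16.3 at E12.5, and was higher at E17.5 by 1.75 ± 0.19 (adjusted p = 1.60e-11). No interval within 500 bp of any of its coding starts was called at E13.5, and the same held for Muc16, Acbd7 and Tmem151a. By contrast, Neu2, Egfl7, Cdk2ap1, Myadm, Sh3bp5 and Shld2 had a called promoter in both E13.5 lists, at percentiles of 72.2 to 98.8. The Myadm member was higher at E17.5 by 1.54 ± 0.16, and those of Neu2 (0.95 ± 0.20), Acbd7 (0.98 ± 0.18), Sh3bp5 (0.74 ± 0.20) and Shld2 (0.62 ± 0.17) were higher too. The Egfl7 member differed by -0.77 ± 0.20, and that of Cdk2ap1 did not pass. The Tmem151a member was higher by 0.49 ± 0.20, but its stages overlapped, and it did not pass without E11.5 replicate 2 (adjusted p = 0.121), E11.5 replicate 3 (adjusted p = 0.104), E17.5 replicate 1 (adjusted p = 0.150) or E17.5 replicate 3 (adjusted p = 0.0749).

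The members with the highest mean epicardial percentile were linked to 9330182L06Rik, Olfr223, Lgals3, Mettl17 and Tcf12. The region 12.7 kb from 9330182L06Rik stood at 90.1 to 94.9 at E11.5, 91.9 to 96.3 at E17.5 and 37.3 at E12.5, and was higher at E17.5 by 0.68 ± 0.16, although its percentiles overlapped. The Mettl17 region stood at 81.5 to 90.9 in the epicardium and 40.5 at E12.5 and did not pass. The Lgals3 region (chr14:47371474-47372097), in the gene of the lectin galectin-3, stood at 90.7, 90.6 and 85.5 at E11.5, followed by 84.3, 89.9 and 91.6 at E17.5 and had a percentile of 3.63 with 17 fragments at E12.5. The region 7.78 kb from Olfr223 stood at 82.1 to 83.6 at E11.5, followed by 96.0 to 96.9 at E17.5 with 31.8 at E12.5 and was higher at E17.5 by 1.67 ± 0.15. The Tcf12 region, in the gene of an E-protein, stood at 74.7 to 88.7 in the epicardium and 25.6 at E12.5 and was higher at E17.5 by 0.64 ± 0.16, although its percentiles overlapped between stages.

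Several genes had more than 1 member: 47 were the nearest coding gene of 2 or more. Myc, the growth regulator, and Rad51b, a recombination gene, had 4 each, beside 23 and 22 regions in all 9 lists, and both were singled out after these counts were seen. The Myc members lay 262 kb to 514 kb from its start. One of them (chr15:61609602-61610021) stood at 62.3, 77.3 and 79.8 at E11.5, at 85.8, 83.3 and 78.5 at E17.5 and at 42.9 at E12.5 and was higher at E17.5 by 0.83 ± 0.19 (adjusted p = 0.000151), although its percentiles overlapped between stages. Of the other 3 Myc members, 2 were lower at E17.5, by 0.48 (difference -0.48 ± 0.20) and 0.66 (difference -0.66 ± 0.25), and 1 did not pass. Those 2 calls held under only 4 and 6 of the 14 alternatives. The members of 1 gene share a neighbourhood and are not separate measurements of it.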

How the data were processed

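The 9 deposited lists are narrowPeak files of ATAC-seq summits, called per library by the authors with MACS2 2.2.9.1 on mm10 at a q-value of 0.01; the E13.5 sample 2 list was made from merged technical replicates. For each summit the authors deposited a fold enrichment, a −log10 p and a −log10 q, and no read counts, so fragments at a summit and its local background were solved from the fold and the −log10 p. Fragments are not independent molecules of known number, and depth is known only through this background. Scores were scaled to the same sum in each library, put on log2(scaled score + 1) and compared between stages with limma 3.58.1 (R 4.3.3) and Benjamini-Hochberg adjustment at 0.05 over the 53848 regions. No samples entered in pairs. The samples are pools of hearts, and the p-values measure the spread between such pools; an exact permutation test of 3 against 3 could not go below 0.1. On simulated data for the E17.5 against E11.5 comparison over 53848 regions, the fit found 34% of changes of 1 and 90% of changes of 2 on the log2 scale. Only a small part of the simulated regions was changed, whereas 49.6% of regions were called in the real data. The adjusted threshold was therefore stricter in the simulation, and these shares do not give the sensitivity of the fit on the real data. Small differences can still go uncalled. The region rule was checked on a constructed example. Genes were taken from GENCODE M21 and sequence from GRCm38. A promoter lay within 3 kb of a start. Motifs were exact patterns. Members, gene lists and tests were chosen with earlier results of these data known. Named are the 10 members strongest at E12.5, the 5 largest stage differences in each direction with separate stages, members of the listed genes and the strongest of each pathway list, up to 10 at coding starts, the 5 strongest in the epicardium and 3 on each side of the peak limit. A single member of the listed genes is not reported here. Alternatives covered the region rule, score, filter, pseudocount, normalisation, windows and each left-out replicate.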

Additional observations from a re-analysis of the deposited data

How the results depend on the processing

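The number of members was 773 and depended on the calling rule: 1884 with equal numbers of top peaks, 375 when an interval had to cover 0.5 of the region (141 of them shared with the 773), 597 at a −log10 q of at least 5, and 776 to 2570 when 1 library was left out, the highest without E13.5 sample 2. At E17.5, 121 members were higher with rank percentiles and 127 were lower with fold enrichment. The median stage difference, -0.08, turned positive with fold enrichment (0.056), fragments over background (0.15) and quantile normalisation (0.063) and was -6.07 points with rank percentiles, and the cause was not tested. Leaving out 1 epicardial replicate gave 171 to 203 higher and 197 to 217 lower members and a median of -0.12 to -0.04.

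Same-numbered samples of the 2 stages deviated with correlations of 0.0025, 0.062 and -0.078, so the numbers did not pair them. With the replicate number as a block, 199 members were higher and 231 lower, with a median of -0.08, and 426 of the 427 calls were shared.

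Ranking by fold enrichment gave E11.5 medians of 50.4, 56.2 and 55.1, and equal numbers of peaks gave 44.3, 45.49 and 44.98 at E11.5 and 49.8 in E17.5 replicate 2. With a promoter window of 500 bp the shares were 6.86% promoter, 6.08% exonic, 52.1% intronic and 34.9% intergenic. AP-1 stood at 29.8% of members within 75 bp (13.1% of regions in all 9 lists) and 32.0% around the E12.5 summit (15.8%), TEAD at 31.1% within 75 bp (14.99%) and 47.4% within 250 bp (31.6%). Of all 427 members called, 190 passed under every alternative and 14 had the opposite sign under at least 1. Of 476 values for the 34 members past the threshold that the naming rule chose, the Myc members not among them, 442 kept direction and threshold, 34 kept direction only and 0 reversed, and 19 of the 34 passed under every alternative. The E12.5 group is 1 library with 13 fragments at its weakest calls.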
